A study of Mus musculus with 4 samples.

Results

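Early neuron marker genes were followed in N31 cells, a mouse neural progenitor cell (NPC) line, as a set of 10 genes out of the 21862 genes listed once for each library. The 10 genes were Tubb3, Map2, Dcx, Stmn2, Gap43, Ncam1, Elavl3, Rbfox3, Mapt and Neurod1, and they were chosen by name as genes that newborn neurons use, with earlier results of these data known. RNA sequencing had been carried out to learn how matrix stiffness bears on gene expression in NPCs, at 0.5 kPa and at 12 kPa (called soft and hard below), with and without knockdown of Srf, a transcription factor that responds to the state of the actin cytoskeleton. The series held 4 libraries, 1 for each condition, so differences between conditions had no replicate check, and no test was made. Each level below is an FPKM, fragments per kilobase of transcript scaled to the mapped depth of the library, so that levels can be compared between genes. All errors given are counting errors from the estimated number of reads behind a value, and they do not cover the variation between cultures.

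The cells of all 4 libraries were derived in the same way. N31 NPCs came from induced pluripotent stem cells that had been reprogrammed from an embryonic stem cell-derived NPC line with doxycycline-inducible Oct4, Klf4, c-Myc and Sox2, and these transgenes were carried in every group. All cultures received NPC medium lacking EGF and bFGF, on a matrix laid over dishes coated with type I collagen. The control groups at 0.5 kPa and at 12 kPa were N31 cells, and no control shRNA or empty vector was stated for them. The shSrf groups at 0.5 kPa and at 12 kPa expressed shSrf#1 from a retroviral H1 promoter vector. A culture was 1 population of 1 cell line carrying 1 shRNA, so a difference between shSrf and control cells cannot be told apart from an effect of infection, of drug selection or of the particular shRNA sequence.

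Neurons are set apart from the progenitors that give rise to them by a dense, stable microtubule cytoskeleton, by growth cones that steer the axon and by RNA-binding proteins that direct neuronal splicing and mRNA stability. Proneural basic helix-loop-helix factors such as Neurod1 turn on this program as a progenitor leaves the cell cycle. In dividing neural progenitors most of these genes are kept low, in part by the repressor Rest and by the splicing repressor Ptbp1. Some marker genes are less restricted than others. Ncam1, for example, is also made by progenitors, glia and muscle.

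The targeted gene and the depth of the libraries were examined first. The FPKM of Srf was 34.4 in control NPCs at 0.5 kPa and 35.6 at 12 kPa, and 16.2 and 17.4 in shSrf NPCs, a log2 difference of -1.09 at 0.5 kPa and -1.03 at 12 kPa. The depth estimated from low FPKM values was about 29100000 and 24100000 reads in control NPCs at 0.5 and 12 kPa and about 45100000 and 62300000 reads in shSrf NPCs. Of the neural progenitor markers, 10 of 19 were above an FPKM of 2 in all libraries, among them Vim, Hes1 and Nes, whereas Sox1, Hes5, Olig2 and Nr2e1 were listed at 0. The summed FPKM of these progenitor markers was 1694 to 1919 in control and 2604 to 2620 in shSrf libraries, most of it from Vim. The 5 endothelial markers were all below 1, as were 5 of the 6 macrophage markers listed and 8 of 11 skeletal muscle markers, with Myod1 and Myf5 at 0. All 16 mesenchymal and smooth muscle markers were at 1 or above in some library, with a summed FPKM of 5151 to 5761 in control and 4420 to 4598 in shSrf libraries. That sum includes Acta2, Tagln and Myl9, which the paper names as known Srf targets. The part that a change in cell makeup had in the differences below was not tested.

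The label of early neuron was set against the levels of the genes. Only 4 of the 10 genes, Ncam1, Map2, Stmn2 and Tubb3, exceeded an FPKM of 2 in all 4 libraries. The other 6 were below 1 FPKM in every library, and Rbfox3 and Neurod1 were listed at 0 throughout. Dcx and Elavl3, markers by which young neurons are usually recognised, did not exceed 0.0125 and 0.106 FPKM. The defining markers were thus at or near 0 in cells labelled as in vitro differentiated NPCs, and the genes are described below as neuron marker genes of an NPC culture and not as markers of neurons present in it. In bulk RNA, fewer cells of a type and less RNA in each cell cannot be told apart.

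**Figure D1:**
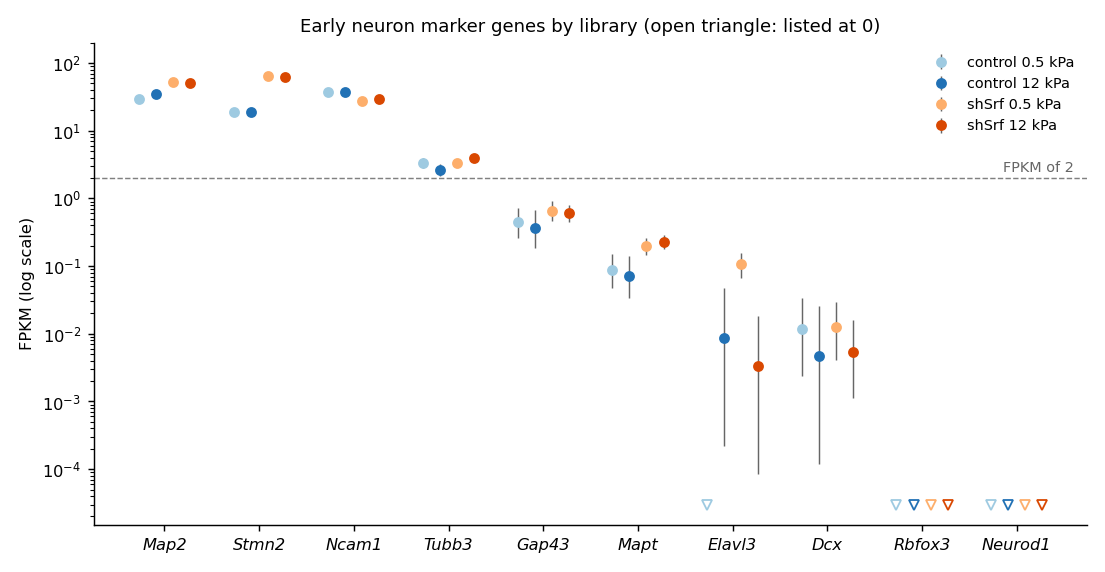
FPKM of each of the 10 neuron marker genes (log scale) in the 4 libraries, with exact Poisson 95% intervals of counting error as bars. Open triangles mark values listed at 0, and the dashed line is an FPKM of 2. Map2, Stmn2, Ncam1 and Tubb3 lie above the line in all libraries, and Rbfox3 and Neurod1 are at 0 in all.

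Promoter sequence was available from RefSeq (GRCm38.p6, the mm10 assembly) for 6 of the 10 genes, namely Map2, Tubb3, Dcx, Elavl3, Rbfox3 and Neurod1, with 2 start sites for Dcx. Stmn2, Gap43, Ncam1 and Mapt were not in the table. The 250 bases before the start are shown for Tubb3, which was detected in every library, and for Neurod1, which was listed at 0 in every library, because the windows hold nearly the same number of CpG dinucleotides although the levels of the genes differ. Both are written 5′ to 3′ on the strand of the gene, with CpG dinucleotides in capitals.
Tubb3, chr8:123411303-123411552, plus strand: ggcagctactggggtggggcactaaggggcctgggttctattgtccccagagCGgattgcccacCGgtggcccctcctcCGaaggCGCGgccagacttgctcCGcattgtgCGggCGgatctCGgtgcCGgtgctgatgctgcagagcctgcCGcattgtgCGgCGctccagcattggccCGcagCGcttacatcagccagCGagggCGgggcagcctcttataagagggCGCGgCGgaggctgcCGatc
Neurod1, chr2:79456637-79456886, minus strand: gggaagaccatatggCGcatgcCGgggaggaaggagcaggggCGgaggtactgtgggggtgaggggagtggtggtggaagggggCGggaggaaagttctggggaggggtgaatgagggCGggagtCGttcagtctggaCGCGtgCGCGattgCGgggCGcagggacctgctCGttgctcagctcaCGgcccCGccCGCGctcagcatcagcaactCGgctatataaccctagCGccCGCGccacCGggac
The Tubb3 window held 21 CpG dinucleotides at 68% GC, and the Neurod1 window held 22 at 67.6% GC. Among 32841 RefSeq mouse promoter windows of the same length the median number was 6, and 16.4% held as many as Tubb3 and 14.8% as many as Neurod1. The Map2 window held 34, a number reached by 3.53% of all windows, and the Elavl3 window 20, reached by 17.95%. Dcx, in both of its windows, and Rbfox3 had 3 each, which 71.0% of all windows reached. The Rbfox3 window, chr11:118761042-118761291 on the minus strand, lies inside the gene, which spans 118489760 to 118911597. It thus precedes an internal start, and the 5′ end of Rbfox3 was not examined. Of the 2 Dcx windows, 1 (143933125 to 143933374) also lies inside its gene, whose span reaches 143933396. The other Dcx window and those of Map2 and Elavl3 overlap the annotated gene in part, so they too precede starts inside it. Only the windows of Tubb3 and Neurod1 lie wholly before the gene. A search on both strands for TCAGCACC, part of the element that Rest binds, found it in Tubb3 alone, on the opposite strand as GGTGCTGA, 121 bases before the start, and in 1.32% of all windows. A search on both strands for the E-box CACCTG, of the kind bound by basic helix-loop-helix and zinc-finger factors, found it in Elavl3 and Rbfox3 and in 17.2% of all windows. Such matches are a description of the letters and no evidence of binding.

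The cytoskeletal genes are considered first, starting with the stathmins, small proteins that bind tubulin dimers and promote microtubule disassembly. Stmn2, the stathmin of growing axons (chromosome 3, 8509527 to 8561604), stood at an FPKM of 19.1 in control NPCs at 0.5 kPa, 18.7 in control NPCs at 12 kPa, 64.6 in shSrf NPCs at 0.5 kPa and 61.3 in shSrf NPCs at 12 kPa. Both shSrf libraries were high and both control libraries low, and the levels on the 2 matrices lay close together within each population. The shSrf level was 3.39-fold the control level at 0.5 kPa (log2 ratio 1.76, counting SE 0.051) and 3.28-fold at 12 kPa (log2 ratio 1.72, counting SE 0.055). Between matrices, the log2 ratio of 12 kPa to 0.5 kPa for Stmn2 was -0.03 (counting SE 0.070) in control and -0.07 (counting SE 0.027) in shSrf NPCs. Among the 10489 genes above an FPKM of 2 in all libraries, 0.477% had a higher shSrf to control ratio than Stmn2 at 0.5 kPa, and 0.477% at 12 kPa. There were 37 genes, or 0.353%, above Stmn2 at both stiffnesses.

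Among stathmin family transcripts the balance between members differed between the populations. Stmn2 made up 10.2% and 9.91% of the summed stathmin FPKM in control NPCs at 0.5 and 12 kPa, and 25.2% and 24.5% in shSrf NPCs. Stmn1, the stathmin of dividing cells, made up nearly all of the rest. Its FPKM was 168 and 170 in control and 192 and 189 in shSrf NPCs, so that its share went from 89.7% and 90.0% to 74.7% and 75.4%. Stmn3 and Stmn4, which are neuronal, stayed at or below 0.305 FPKM. The stathmin sum was 187 and 188 FPKM in control and 257 and 251 FPKM in shSrf libraries, a difference made mostly by Stmn2.

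The genes whose pattern over the 4 libraries was most like that of Stmn2, by the Euclidean distance between log2 FPKM centred on their mean, were Cxx1b, Cd24a and Snurf. Cxx1b lay closest (distance 0.0593), with 4.995 and 4.943 FPKM in control NPCs at 0.5 and 12 kPa and 16.4 and 16.5 FPKM in shSrf NPCs. Cd24a, which codes for a surface glycoprotein (distance 0.106), had 3.35 and 3.49 FPKM in control and 10.9 and 11.2 FPKM in shSrf NPCs. Snurf, an imprinted gene that shares its transcript with Snrpn (distance 0.125), had 15.6 and 15.7 FPKM in control and 55.0 and 46.7 FPKM in shSrf NPCs. All 3 were, like Stmn2, more than 2-fold higher in shSrf libraries at both stiffnesses, which held for 183 of the 10489 genes (1.74%), against 179 (1.71%) that were more than 2-fold lower at both.

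Map2 encodes the microtubule-associated protein of dendrites (chromosome 1, 66175202 to 66442583). Its FPKM was 29.9 in control NPCs at 0.5 kPa, 35.1 in control NPCs at 12 kPa, 51.7 in shSrf NPCs at 0.5 kPa and 50.05 in shSrf NPCs at 12 kPa. Both shSrf libraries lay above both control libraries, and the 2 shSrf libraries differed less than the 2 control libraries did. The shSrf to control ratio of Map2 was 1.73-fold at 0.5 kPa (log2 ratio 0.79, counting SE 0.023) and 1.43-fold at 12 kPa (log2 ratio 0.51, counting SE 0.023), and 4.69% and 13.1% of all genes above the minimum had a higher one. On the hard matrix Map2 was 1.18-fold its level on the soft matrix in control NPCs (log2 ratio 0.23, counting SE 0.028), a ratio exceeded by 8.90% of genes. In shSrf NPCs the same log2 ratio was -0.05 (counting SE 0.016), within 1.1-fold.

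Map2 is one of 3 related microtubule-binding proteins, with Map4, found in most cells, and Mapt, the axonal protein tau. Map2 accounted for 19.9% and 25.1% of the summed FPKM of the 3 in control NPCs at 0.5 and 12 kPa, and for 30.0% and 27.7% in shSrf NPCs. Map4 accounted for 69.8% to 80.0% of it. Mapt (chromosome 11, 104229409 to 104332090) was listed at 0.0887 and 0.0715 FPKM in control NPCs at 0.5 and 12 kPa and at 0.199 and 0.225 FPKM in shSrf NPCs, which corresponds to about 13, 9, 45 and 71 reads if the longest transcript is assumed. Both shSrf values were above both control values. The ratio for Mapt was 2.24-fold at 0.5 kPa (log2 ratio 1.16, counting SE 0.45) and 3.15-fold at 12 kPa (log2 ratio 1.65, counting SE 0.52), at levels far below those at which Map2 was found. If the shortest annotated transcript over 1000 nt were assumed instead, the reads behind Mapt would number about 1.76 to 14.3 and the errors would be larger.

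Tubb3, the neuronal β-tubulin recognised by the antibody TuJ1 (chromosome 8, 123411553 to 123422015), was the weakest of the 4 genes above an FPKM of 2. Its FPKM was 3.34 in control NPCs at 0.5 kPa, 2.63 in control NPCs at 12 kPa, 3.39 in shSrf NPCs at 0.5 kPa and 3.93 in shSrf NPCs at 12 kPa, from about 162, 106, 255 and 408 reads. The control library at 12 kPa was the lowest and the shSrf library at 12 kPa the highest, while the 2 libraries at 0.5 kPa were nearly level. The log2 ratio of 12 kPa to 0.5 kPa was -0.34 (counting SE 0.18) in control NPCs, where 3.90% of genes were lower, and 0.21 (counting SE 0.12) in shSrf NPCs, where 9.27% of genes were higher. The 95% counting interval of each of these 2 ratios included 0. The shSrf to control log2 ratio was 0.02 (counting SE 0.14) at 0.5 kPa and 0.58 (counting SE 0.16) at 12 kPa.

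The GC content of transcripts was examined beside these ratios. Transcripts of Tubb3 are 57.9% GC, above 88.3% of genes. Across 10326 genes the log2 ratio of shSrf to control had a Spearman correlation with transcript GC of 0.265 at 0.5 kPa and 0.411 at 12 kPa. For the ratio of 12 kPa to 0.5 kPa the correlation was -0.127 in control and 0.340 in shSrf NPCs. These correlations are a description only, since all genes share the same 4 libraries. After each ratio was centred on genes of like GC content, a step chosen after the data had been seen, the shSrf to control log2 ratio of Tubb3 was -0.13 at 0.5 kPa, of the opposite sign, and 0.28 at 12 kPa, and its hard to soft ratio was then -0.30 for control and 0.13 for shSrf NPCs (log2). These shifts of Tubb3 were within its 95% counting error. Stmn2, of 45.8% GC, had shSrf to control log2 ratios of 1.84 and 1.82 after the same step, and Map2, of 47.8% GC, had 0.83 and 0.59.

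Tubb3 was a very small part of the β-tubulin pool. It made up 0.259% and 0.205% of the summed β-tubulin FPKM in control NPCs at 0.5 and 12 kPa and 0.226% and 0.255% in shSrf NPCs. Tubb5, the β-tubulin of dividing cells, made up 67.7% to 72.6%, and Tubb6, Tubb4b, Tubb2b and Tubb2a nearly all of the remainder. Since these genes are alike in their coding sequence, a Tubb3 level so far below that of Tubb5 could be altered by few misassigned reads, and this was not tested.

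**Figure D2:**
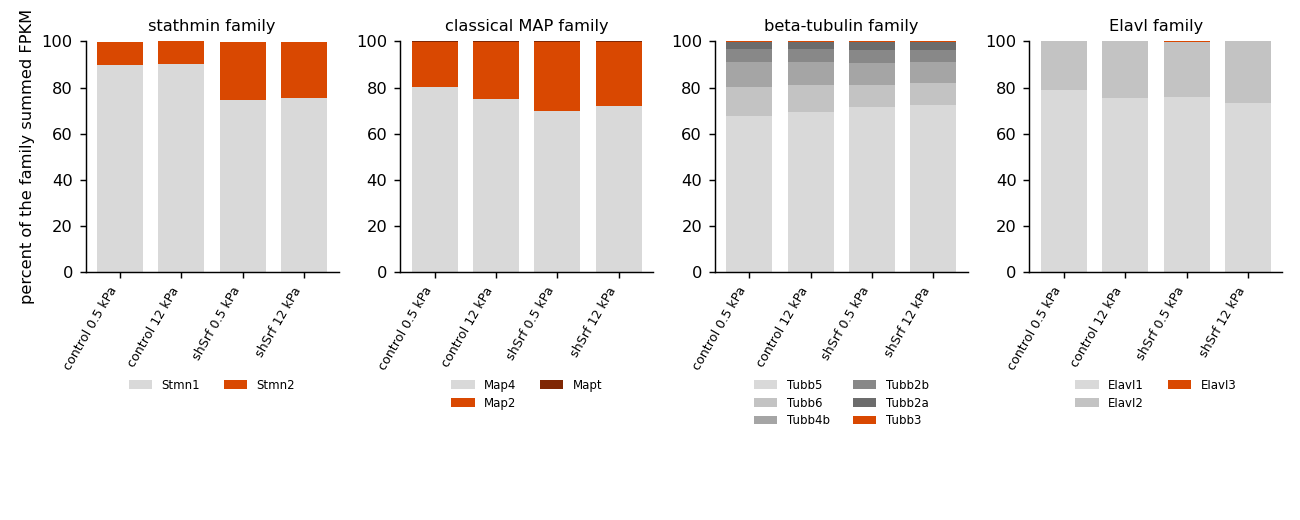
Share of each gene in the summed FPKM of 4 protein families (stathmins, Map2 with Map4 and Mapt, β-tubulins, Elavl proteins), in percent, as stacked bars from 0 for the 4 libraries. The Stmn2 share of the stathmins is 10.2% and 9.91% in control and 25.2% and 24.5% in shSrf libraries, and Tubb3, Mapt and Elavl3 are too small a share of their families to be seen.

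Dcx encodes doublecortin, a microtubule-binding protein of migrating neurons (chromosome X, 143855842 to 143933396). Its FPKM was 0.0118 in control NPCs at 0.5 kPa, 0.00467 in control NPCs at 12 kPa, 0.0125 in shSrf NPCs at 0.5 kPa and 0.00542 in shSrf NPCs at 12 kPa, or about 3, 1, 5 and 3 reads. With so few reads no difference between the libraries was detectable, and the shSrf to control log2 ratios of 0.09 and 0.22 each had a counting SE above 1. The related kinases Dclk1 and Dclk2 carried nearly all doublecortin family transcripts. Their FPKM was 15.7 to 23.3 for Dclk1 and 10.3 to 13.9 for Dclk2.

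Gap43, a growth cone protein of extending and regenerating axons (chromosome 16, 42248552 to 42340651), was also low. It had 0.451 and 0.371 FPKM in control NPCs at 0.5 and 12 kPa and 0.655 and 0.605 FPKM in shSrf NPCs, from about 16, 11, 36 and 46 reads. The shSrf values were above the control values, but the counting intervals of the populations overlapped at each stiffness, with log2 ratios of 0.54 (counting SE 0.43) and 0.71 (counting SE 0.49). Basp1, Marcks and Marcksl1, membrane proteins of the same functional group, were expressed at 108 to 429 FPKM in these cells, and Gap43 was 0.0537% to 0.0750% of the sum of the 4. Marcksl1 stood at 254 and 252 FPKM in control and 429 and 417 FPKM in shSrf NPCs, log2 ratios of 0.75 and 0.73.

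Ncam1, the neural cell adhesion molecule (chromosome 9, 49502129 to 49799393), was the marker gene with the highest level in control NPCs. Its FPKM was 37.0 in control NPCs at 0.5 kPa, 37.9 in control NPCs at 12 kPa, 27.7 in shSrf NPCs at 0.5 kPa and 29.9 in shSrf NPCs at 12 kPa. Both shSrf libraries lay below both control libraries, the reverse of Stmn2 and Map2. The control level was 1.33-fold the shSrf level at 0.5 kPa (log2 ratio of shSrf to control -0.42, counting SE 0.024) and 1.27-fold at 12 kPa (log2 ratio -0.34, counting SE 0.023). Of all genes above the minimum, 15.9% and 20.5% had a lower ratio than Ncam1, so its difference was not an unusual one for these libraries. The ratio of 12 kPa to 0.5 kPa for Ncam1 was within 1.1-fold in both populations, with log2 values of 0.03 (counting SE 0.026) and 0.11 (counting SE 0.021). Its paralog Ncam2, of olfactory axons, stood at 3.88 and 5.4 FPKM in control and at 2.29 and 2.46 FPKM in shSrf NPCs. Ncam1 made up 87.5% to 92.4% of the sum of the pair.

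Elavl3, an RNA-binding protein of the Hu group that stabilises neuronal mRNAs (chromosome 9, 22015005 to 22052146), was listed at 0 in control NPCs at 0.5 kPa, at 0.00861 FPKM in control NPCs at 12 kPa, at 0.106 FPKM in shSrf NPCs at 0.5 kPa and at 0.00333 FPKM in shSrf NPCs at 12 kPa. These values correspond to about 0, 1, 23 and 1 reads. The shSrf library at 0.5 kPa thus stood apart from the other 3, including the deeper shSrf library at 12 kPa, and with 1 library a condition it was not tested whether this belongs to the condition or to the library. Elavl1, which is made in most cells, had 36.0 and 39.5 FPKM in control and 46.7 and 43.4 FPKM in shSrf NPCs. Elavl2, the Hu protein also found in progenitors and germ cells, had 9.70 and 13.0 FPKM in control and 14.9 and 15.8 FPKM in shSrf NPCs, and Elavl4 was listed at 0 in all libraries.

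Rbfox3, the splicing factor known as NeuN and a marker of mature neurons (chromosome 11, 118489760 to 118911597), was listed at 0 in all 4 libraries. At the depth of these libraries 3 reads would have given between 0.0163 and 0.0422 FPKM for Rbfox3, if the longest transcript is assumed. The upper 95% counting limits of a count of 0 were 0.0201 to 0.0518 FPKM. A shorter transcript would raise both. Rbfox2, its paralog in stem cells, muscle and other tissues, made up over 99.9% of Rbfox family FPKM, with 54.8 and 53.5 FPKM in control and 35.0 and 35.5 FPKM in shSrf NPCs. Neurod1, the proneural transcription factor (chromosome 2, 79452637 to 79456636), was likewise listed at 0 in all 4 libraries, with 3 reads equal to between 0.0190 and 0.0492 FPKM. Of the other Neurod genes, Neurod2 and Neurod6 were at 0 and Neurod4 did not exceed 0.0132 FPKM, which is about 1 read.

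The order of the marker genes by FPKM differed between the populations at the top. In both control libraries it ran Ncam1, Map2, Stmn2, Tubb3, Gap43, Mapt, and in both shSrf libraries Stmn2, Map2, Ncam1, Tubb3, Gap43, Mapt. Neighbours among these 6 did not overlap in their counting intervals in any library, if the longest transcript is assumed. The smallest gap was that of Ncam1 over Map2 in control NPCs at 12 kPa, 1.08-fold. Below Mapt the order was not resolved, since Rbfox3 and Neurod1 were tied at 0 the intervals of Dcx and Elavl3 overlapped in 3 of the 4 libraries, and those of Mapt and Elavl3 in control NPCs at 12 kPa and shSrf NPCs at 0.5 kPa. The summed FPKM of the 10 genes was 89.8 and 94.7 in control and 148 and 146 in shSrf libraries, nearly all of it from Map2, Stmn2 and Ncam1.

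Counted by comparison, few of the marker genes passed the fold thresholds. For the hard against the soft matrix the threshold was 1.1-fold, as used in the study's methods. In control NPCs 1 of the 4 genes above the minimum, Map2, was more than 1.1-fold higher at 12 kPa, against 17.9% of all 10489 genes, and 1 of 4, Tubb3, was more than 1.1-fold lower, against 16.9%. In shSrf NPCs 1 of 4, Tubb3, was more than 1.1-fold higher, against 17.6%, and 0 of 4 were lower, against 13.0%. The median log2 ratio of the 4 genes was 0.0013 in control NPCs, where that of all genes was 0.0030, and 0.03 in shSrf NPCs, where that of all genes was 0.0064. Counts of 1 of 4 lay near the shares over all genes and say nothing particular about the marker genes.

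For shSrf against control NPCs a threshold of 2-fold was used, because the populations differed more widely than the matrices. Stmn2 was the 1 of 4 genes above the minimum that was more than 2-fold higher, at 0.5 kPa against 2.45% of all genes and at 12 kPa against 2.74%. None, 0 of 4, was more than 2-fold lower, against 2.86% of all genes at 0.5 kPa and 2.22% at 12 kPa. The median log2 ratio of the 4 genes was 0.41 at 0.5 kPa and 0.54 at 12 kPa, beside 0.0106 and 0.0098 over all genes, and the 4 genes did not share a direction, with Ncam1 at negative values. Over the 7 marker genes above 0 in all libraries, which adds Gap43, Mapt and Dcx, the median was 0.54 and 0.58. These 2 stiffnesses were sampled in separate libraries, and each of the 4 genes had the same sign in both. The Tubb3 ratio of 0.02 at 0.5 kPa, however, lay within its counting error of 0. Both ratios set N31 cells with shSrf#1 against N31 cells, so a shared sign is no replicate check.

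**Figure D3:**
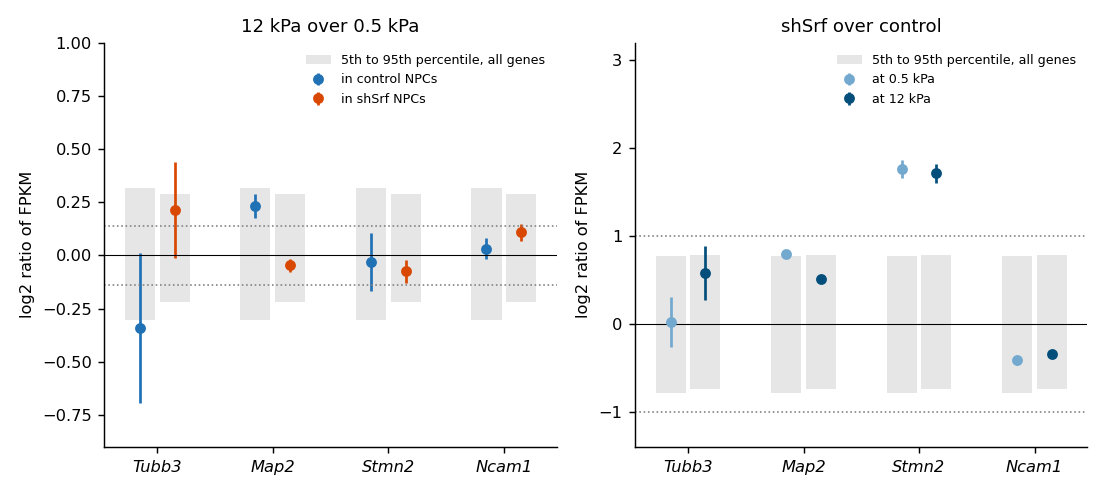
Log2 FPKM ratios of the 4 marker genes above an FPKM of 2 in the 4 comparisons, with 95% intervals of counting error. Dotted lines are 1.1-fold (left) and 2-fold (right). The grey bars run from the 5th to the 95th percentile of the 10489 genes above an FPKM of 2 in all libraries. Stmn2 lies far outside the grey bars in shSrf against control at both stiffnesses, at 1.76 and 1.72, and between matrices the ratios of the 4 genes above that level run from -0.34 (Tubb3 in control) to 0.23 (Map2 in control).

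The difference between the stiffness ratios of control and shSrf NPCs was computed for each gene. For Map2 it was 0.28 on the log2 scale (counting SE 0.033), with Map2 higher on the hard matrix in control NPCs alone. For Tubb3 it was -0.55 (counting SE 0.21), with the control and shSrf ratios on opposite sides of 0. For Stmn2 it was 0.04 (counting SE 0.075) and for Ncam1 -0.08 (counting SE 0.033). These differences had counting errors only, and none was tested. The errors assume the longest transcript. With the shortest over 1000 nt, the reads behind Map2 would number about 685 to 2523, and its errors would be larger.

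The wider neuronal program was examined with 5 lists that exclude the 10 marker genes and hold 83 genes, of which 36 were above an FPKM of 2 in all libraries, 45 below 1 in all and 7 at 0 in all. The transcription factor list was the one with most genes low. Of 21 proneural and neuronal transcription factors, 16 were below 1 FPKM in all libraries, and Neurog1, Neurog2, Neurod2, Neurod6 and Myt1 were listed at 0. Of the 5 above the minimum, Sox4, Dlx2, Dlx1 and Sox11 are factors that progenitors of the forebrain also make. The other was Isl1, at 6.24 and 8.46 FPKM in control and 10.6 and 11.3 FPKM in shSrf NPCs. Its shSrf to control log2 ratios were 0.77 at 0.5 kPa and 0.42 at 12 kPa. None of the 5 was past 2-fold between the populations. Of 10 neuronal RNA-binding proteins 3 were above the minimum, namely Ptbp2, Elavl2 and Nova1. Of 18 synaptic and secretory genes 7 were, among them Vamp2, Rab3a and Stx1a, which also serve secretion in other cells. The 7 also included the synaptic genes Snap25, Syn1 and Syt1, at 2.03 to 4.46 FPKM.

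The list of other neuronal cytoskeleton and growth cone genes was the best represented, with 17 of 24 above the minimum. It was led by Tuba1a, Marcksl1, Basp1 and Stmn1. None of the 17 was past 2-fold in either direction between shSrf and control NPCs at either stiffness, and their log2 ratios had a median of 0.10 on the soft and 0.16 on the hard matrix. Below the minimum, at under 1 FPKM, Ina and Dpysl5, picked after their values were seen, had ratios of the size of that of Stmn2. Ina, the neurofilament protein α-internexin, had 0.249 and 0.232 FPKM in control and 0.686 and 0.760 FPKM in shSrf NPCs, log2 ratios of 1.47 (counting SE 0.34) and 1.71 (counting SE 0.37). Dpysl5, a collapsin response mediator protein of growth cones, had 0.0720 and 0.0344 FPKM in control and 0.244 and 0.252 FPKM in shSrf NPCs, log2 ratios of 1.76 (counting SE 0.49) and 2.88 (counting SE 0.73). For both genes, as for Mapt, the shSrf values lay above the control values at low levels. Low genes did not share this direction. In the same list Stmn4 and Nefh were higher on both matrices, and Stmn3 and Nefm on the hard matrix only. Tubb4a had log2 ratios of -1.04 and -0.20, each smaller than its counting SE. Of the low adhesion genes, Cadm3, Chl1 and L1cam were lower in shSrf NPCs on both matrices. Cntn1 and Nfasc were higher on both, and Cntn2 on the hard matrix only. Tuba1a stood at 316 and 327 FPKM in control and 456 and 445 FPKM in shSrf NPCs.

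**Figure D4:**
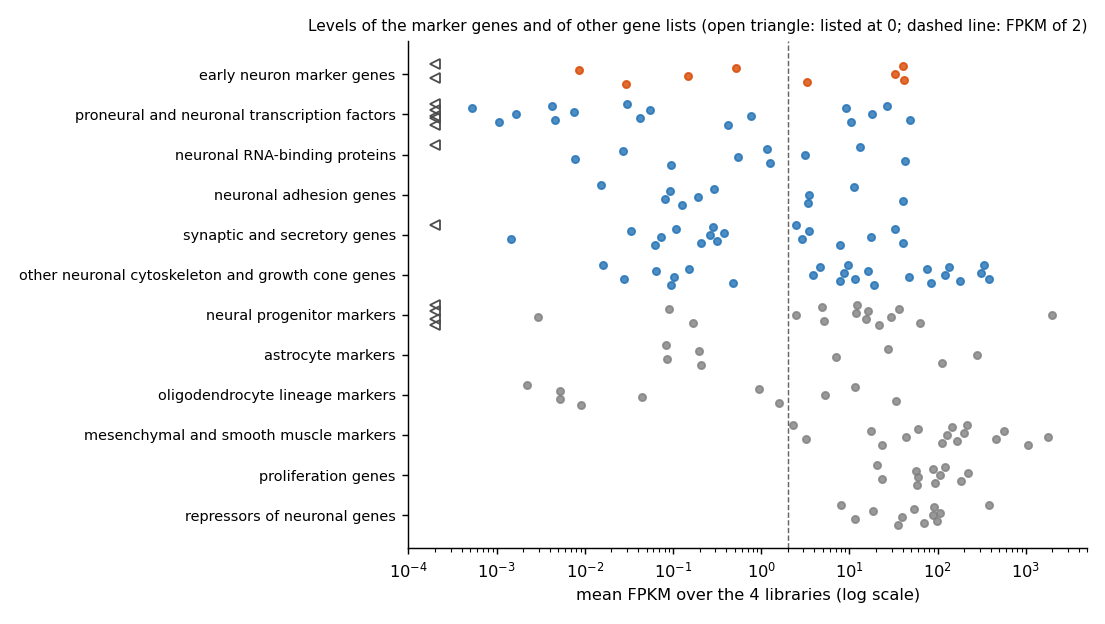
Mean FPKM over the 4 libraries (log scale) of the genes in 12 lists, 1 point for each gene. Open triangles mark genes listed at 0 in all libraries, and the dashed line is an FPKM of 2. The 6 neuronal lists spread from 0 to the level of Tuba1a, with 5 of 21 transcription factors at 0, whereas all 12 repressors and all 11 proliferation genes lie above 2.

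Of 10 neuronal adhesion genes other than Ncam1, 4 were above the minimum. Ncam2 had shSrf to control log2 ratios of -0.76 at 0.5 kPa and -1.13 at 12 kPa, past 2-fold on the hard matrix only. Cdh2, N-cadherin, which joins neighbouring progenitors, had ratios of -0.40 and -0.36, close to the -0.42 and -0.34 of Ncam1, and these 3 genes were thus lower in shSrf NPCs on both matrices. Nrcam, a cell adhesion molecule of axons, was at -0.59 and 0.12, on opposite sides of 0.

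Taking the 36 genes together, 0 were more than 2-fold higher in shSrf than in control NPCs at either stiffness, against the 2.45% and 2.74% of all genes given above, and 1 at 0.5 kPa (2.78%) and 2 at 12 kPa (5.56%) were more than 2-fold lower, against 2.86% and 2.22%. Their median log2 ratio was -0.07 at 0.5 kPa and 0.05 at 12 kPa. Between matrices, 7 of 36 (19.4%) were more than 1.1-fold higher and 10 (27.8%) more than 1.1-fold lower at 12 kPa in control NPCs, with a median of -0.02. In shSrf NPCs 11 (30.6%) were higher and 4 (11.1%) lower, with a median of 0.06. No test was made of these shares.

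**Figure D5:**
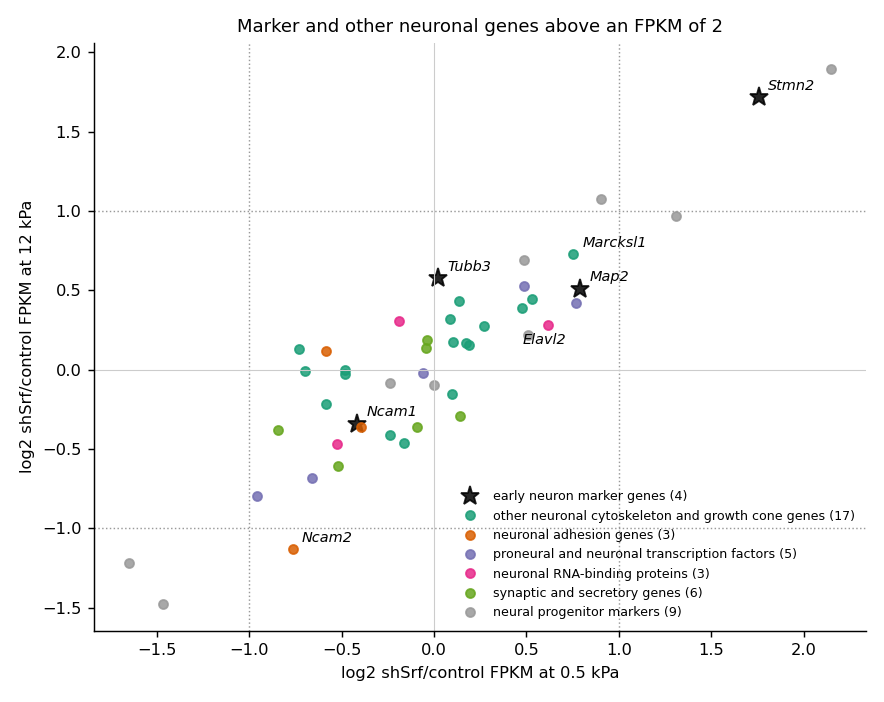
Log2 ratio of shSrf to control FPKM at 12 kPa (vertical) against that at 0.5 kPa (horizontal), 1 point for each gene above an FPKM of 2 in all libraries, for the marker genes (stars), 5 neuronal lists and the neural progenitor markers. Dotted lines are 2-fold. Stmn2, at 1.76 and 1.72, is the only star past both lines on the high side, and Ncam2 lies at -0.76 and -1.13. A few list genes not reported here are not drawn.

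Repressors of neuronal genes were expressed in all libraries, with 12 of 12 above the minimum. Rest, which silences neuronal genes in other cells, had 12.7 and 13.0 FPKM in control and 10.2 and 10.8 FPKM in shSrf NPCs, log2 ratios of -0.31 and -0.27. Ptbp1, which keeps neuronal exons out of mRNA, had 333 and 337 FPKM in control and 403 and 439 FPKM in shSrf NPCs, log2 ratios of 0.27 and 0.38. Neither was past 2-fold, and the 12 had a median log2 ratio of 0.11 and 0.15. Their part in the levels of the marker genes was not tested.

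Markers of other cell types differed beside the Stmn2 result. Of the 10 neural progenitor markers above the minimum, Sox2 was more than 2-fold higher in shSrf NPCs at both stiffnesses and Nes and Slc1a3 more than 2-fold lower, and the median over the 10 was 0.46 on the soft and 0.40 on the hard matrix (log2). Sox2 is also among the transgenes that every group carried, so its FPKM may include transgene reads, which was not tested. Of 13 mesenchymal and smooth muscle markers above the minimum, Acta2, Tagln, Myl9 and Postn were more than 2-fold lower and Dcn more than 2-fold higher at both. The paper names Acta2, Tagln and Myl9 as known Srf targets. Their lower levels under Srf knockdown therefore cannot be told apart from a change in cell makeup. The 11 proliferation genes, which fall silent in neurons, were all above the minimum and had a median of -0.04 on the soft and -0.05 on the hard matrix (log2), and none was past 2-fold. Whether the higher Stmn2 and Map2 levels moved with progenitor or mesenchymal genes in the same cells was not tested.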

How the data were processed

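The authors prepared stranded mRNA libraries from 100 ng of total RNA and sequenced them single-end. Per the submitters' processing notes and the study's methods, cutadapt 1.9.1, TopHat2 2.1.0, Bowtie2 2.2.8 and Cufflinks 2.2.1 were used with mm10 and GENCODE version M14, keeping reads of a mapping quality of at least 20. What the authors deposited was FPKM per gene, called RPKM in the methods. They were used as deposited.

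Each library listed 21997 rows. Symbols on several rows (63 symbols, 135 rows) were not used. Ratios were computed as log2 without a pseudocount, over genes above an FPKM of 2 in all 4 libraries. With 1 library for each condition no p-value was computed. The marker genes and lists were chosen with earlier results of these data known. All 10 marker genes are named, with their protein families, Srf, Rest and Ptbp1. Of each other list up to 4 genes of highest mean FPKM above the minimum are named, with those more than 2-fold higher, or lower, on both matrices, and for a marker gene past 2-fold on both the 3 nearest genes. Other names were chosen after their values were seen, and a few genes that these rules name are not reported here.

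Relative depth was the commonest ratio between libraries of FPKM values under 0.1. Absolute depth was the commonest depth implied if such a value stood for 1 read, in genes with 1 transcript of over 1000 nt. Reads behind a value were estimated from the longest GENCODE M1 coding transcript less 200 nt, and 95% intervals are exact Poisson intervals. Counting errors and the 3-read limit do not cover amplification or variation between cultures. The steps were tested on data simulated with the same depths and transcript lengths, which cannot check the length assumption or the ratios of low genes. Software was Python 3.11.15 with pandas 2.3.3, numpy 2.4.6, matplotlib 3.10.9 and scipy 1.17.1. Alternatives were a minimum of 1, of 5 or none, a pseudocount of 1, median centring, scaling to the 75th percentile, thresholds of 1.2-, 1.5- and 3-fold and centring within 50 bins of GC content.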

Additional observations from a re-analysis of the deposited data

Results flagged for a closer look

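The matrix comparison of Tubb3 ran in opposite directions in the 2 populations. Tubb3, the neuronal β-tubulin, was lower on the 12 kPa than on the 0.5 kPa matrix in control NPCs (2.63 against 3.34 FPKM) and higher in shSrf NPCs (3.93 against 3.39 FPKM), a difference between the log2 ratios of -0.55 with a counting SE of 0.21. This difference was not tested, since each condition had 1 library. The difference was -0.43 after centring on genes of like GC content, where the shSrf log2 ratio was 0.13, within 1.1-fold. Before centring, the 95% counting interval of each of the 2 ratios included 0. Groups of 1 library could not be examined for a library that stood apart from its group.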

How the results depend on the processing

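No paired analysis was possible because the labels give no replicate numbers and no result comes from a test. With 1 library for each condition, none could be left out without losing the condition. Counting errors are the only errors available, and for the 6 marker genes below 1 FPKM depth limits any comparison. A changed minimum leaves the ratio of a single gene as it was, so part of the 135 alternative single-gene values could not move. Of the 135, 134 moved by less than their counting error, a count that is therefore no measure of robustness. The 1 that moved further was the Map2 ratio of shSrf to control at 12 kPa, to 0.59 with centring within GC bins. A minimum of 1, a pseudocount of 1, median centring, 75th percentile scaling and a threshold of 3-fold moved no count or median of the marker genes beyond these limits.

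With a minimum of 5, which drops Tubb3, 0 genes were lower at 12 kPa in control NPCs and 0 higher in shSrf NPCs, where the median was -0.047, and the median of shSrf to control at 0.5 kPa was 0.79. With no minimum, over 7 genes, 4 were lower at 12 kPa in control NPCs (median -0.28), 2 were higher and 1 lower in shSrf NPCs (median -0.047), and 2 were higher in shSrf than in control NPCs at 0.5 kPa (median 0.54) and 2 at 12 kPa, these being Stmn2 and Mapt. At a threshold of 1.2-fold, 0 were higher at 12 kPa in control and 0 in shSrf NPCs. At 1.5-fold, 0 were higher and 0 lower in control and 0 higher in shSrf NPCs, and 2 were higher in shSrf than in control NPCs at 0.5 kPa. Centring within GC bins, chosen after seeing the data, left 0 higher at 12 kPa in shSrf NPCs and gave a median of 0.43 for shSrf to control at 12 kPa. Apart from what the minimum and the threshold exclude by construction, the cause was not tested.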
